A study of Oryza sativa with 9 samples.

Results

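The transcripts of 8 rice genes of the mitotic cell cycle, 4 cyclin-dependent kinases and 4 cyclins, were followed in young panicles of 3 genotypes that differ in *GSE9*, a gene of grain shape. The 8 genes were taken by their identifiers from a table of 37863 genes, by a rule that uses no measured value, though earlier results of these data were known when the set was put together. They are the A-type kinases *CDKA-1* (Os03g0118400) and *CDKA-2* (Os02g0123100), the B-type kinases *CDKB1-1* (Os01g0897000) and *CDKB2-1* (Os08g0512600), the B-type cyclins *CYCB1-1* (Os01g0805600), *CYCB2-1* (Os04g0563700) and *CYCB2-2* (Os06g0726800), and the A-type cyclin *CYCA2-1* (Os12g0581800). The hyphenated names are those that RefSeq lists as synonyms, and the literature often writes a semicolon in place of the hyphen. In the RefSeq table each name stands on the chromosome that the identifier gives, and *CYCB1-1* is carried by 2 loci on chromosome 1, so how reads of near copies were assigned is uncertain for it.

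The panicles came from ZH11-OE1, a line in which a ubiquitin promoter drives the *GSE9* coding sequence, from ZH11-KO1, a CRISPR/Cas9 knockout line, and from the wild type ZH11, that is, the *japonica* variety Zhonghua11 in which both lines were made. Each genotype had 3 libraries, which the study treats as biological repeats, and each transgenic genotype was sequenced from 1 line, so that effects of the line and of *GSE9* cannot be told apart. The panicles were taken before heading, and no age in days is given. *GSE9* itself could not be used to check the genotypes, since no row of the table carries its name or locus identifier.

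A cyclin-dependent kinase acts only when a cyclin is bound to it, and the order in which cyclins accumulate and are destroyed drives a cell through DNA replication and mitosis. In plants the A-type kinases, which carry the PSTAIRE motif of yeast and animal CDKs, act at the entry into S phase as well as into mitosis and are transcribed through most of the cycle. The B-type kinases are found only in the plant lineage and are transcribed around G2 and mitosis. B-type cyclins accumulate from G2 and are broken down through the anaphase-promoting complex, and A2-type cyclins appear from S phase on. Transcripts of the B-type kinases and cyclins are therefore widely used as marks of dividing cells. The size of the spikelet hull, which limits the grain, depends on how many cells are formed and how far they expand, and the study asked whether *GSE9* changes these.

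Transcript level was given as FPKM, that is, sequenced fragments relative to gene length and to library size. Each value also corresponds to a whole number of reads, which was recovered from the steps between values, and the 9 libraries held between 14203346 and 16377581 such reads. The 8 genes had between 59 and 432 reads in a library. Genes whose level averaged 1 FPKM or more in the series were tested with limma on log2(FPKM + 1), and all 8 genes were among the 21780 of this kind. A change was called where the p adjusted over these genes by the method of Benjamini and Hochberg fell below 0.05. A whole panicle was measured, so fewer dividing cells and less transcript per dividing cell cannot be told apart. The 8 floral organ genes used as tissue markers were all above 1 FPKM on average, and their summed level was 1028 to 1202 FPKM in ZH11-OE1, 1068 to 1131 FPKM in ZH11-KO1 and 1110 to 1214 FPKM in ZH11. None of the 8 was called between ZH11-OE1 and ZH11 (13.8% of all genes tested), and 1 fell in ZH11-KO1 against ZH11 (3.59% of all genes). Against ZH11-KO1, 2 were higher (8.09% of all genes) and 1 lower (15.8%) in ZH11-OE1.

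All 8 genes were transcribed in every library, at low to middle levels for this tissue. The B-type kinases had the highest levels, with a mean over the 9 libraries of 16.3 FPKM for *CDKB1-1* and 13.4 FPKM for *CDKB2-1*. *CYCB2-1* followed with 10.6 FPKM, *CDKA-1* with 9.52 FPKM and *CYCB1-1* with 8.56 FPKM. *CDKA-2* had 5.24 FPKM, *CYCB2-2* 4.49 FPKM and *CYCA2-1* 3.17 FPKM. These mean levels placed *CDKB1-1* above 61.4 percent and *CYCA2-1* above 19.8 percent of the genes tested. The step from *CDKB2-1* to *CYCB2-1* and that from *CYCB1-1* to *CDKA-2* held in all 9 libraries. *CYCB2-1*, *CDKA-1* and *CYCB1-1* could not be put in order, since *CYCB2-1* lay above *CDKA-1* in only 4 libraries and *CDKA-1* above *CYCB1-1* in 5. *CDKB1-1* was the highest of the 8 genes in 8 libraries and *CYCA2-1* the lowest in 7, the exceptions being *CDKB2-1* as highest in 1 library and *CYCB2-2* as lowest in 2.

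**Figure D1:**
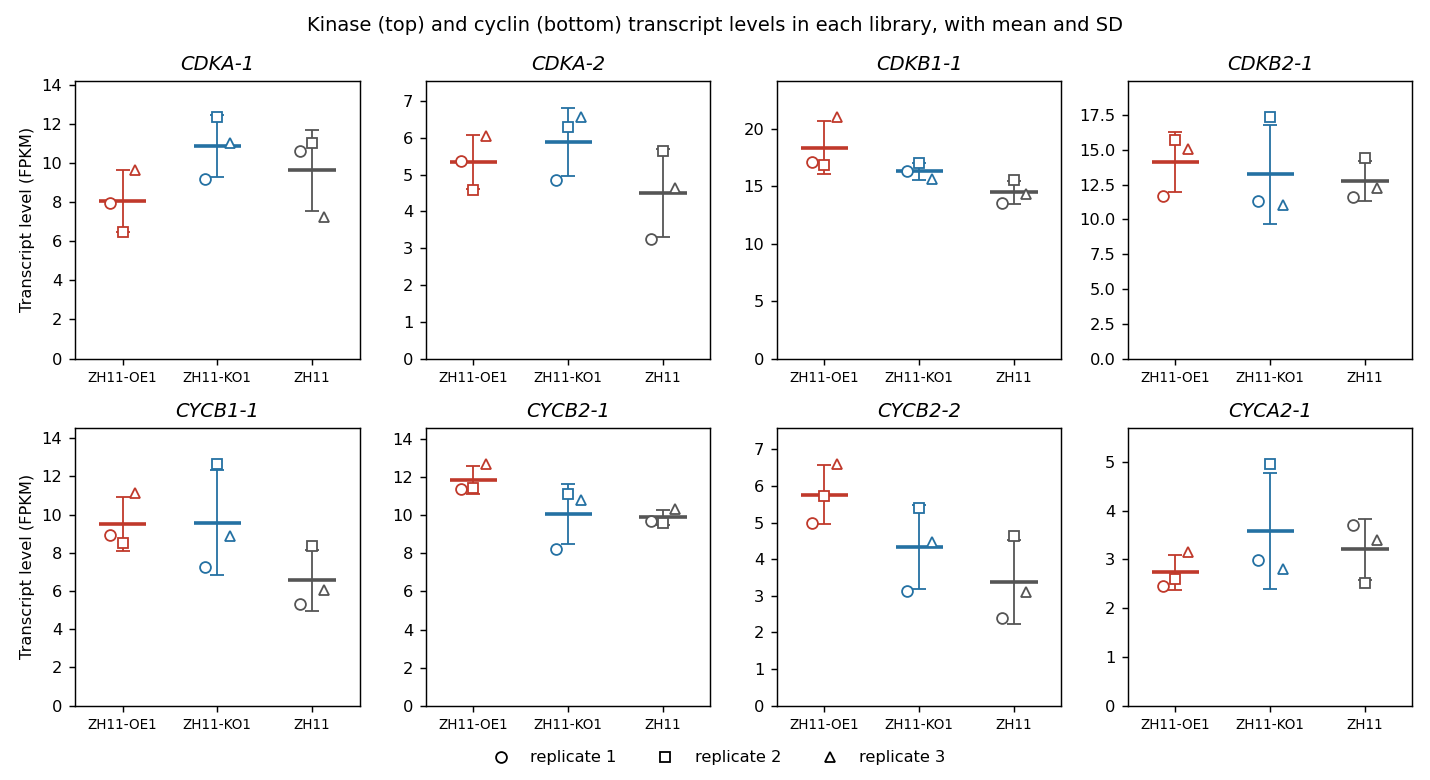
Transcript level in FPKM (vertical axes, each from 0) of the 4 kinases (top row) and the 4 cyclins (bottom row) in ZH11-OE1, ZH11-KO1 and ZH11, with 1 point per library, the marker shape giving the replicate number, a thick bar for the mean and whiskers for 1 SD (n = 3). The ZH11-OE1 points of *CDKB1-1*, *CYCB1-1*, *CYCB2-1* and *CYCB2-2* all lie above those of ZH11, whereas those of the other 4 genes overlap with ZH11.

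In the main fit, which took no account of replicate numbers, none of the 8 genes was called changed in any of the 3 comparisons. Of all genes tested, 13.8% were called between ZH11-OE1 and ZH11 (3.76% higher and 10% lower). The share was 8.6% between ZH11-KO1 and ZH11 (5% higher and 3.59% lower), and 23.9% between ZH11-OE1 and ZH11-KO1 (8.09% higher and 15.8% lower). At an unadjusted p under 0.05, 3 of the 8 passed between ZH11-OE1 and ZH11 (*CDKB1-1*, *CYCB1-1* and *CYCB2-2*, all higher in ZH11-OE1), where 30.5% of all genes did. Only *CYCB1-1* passed so between ZH11-KO1 and ZH11 (25.7% of all genes), and only *CDKA-1* between ZH11-OE1 and ZH11-KO1 (38.8% of all genes). In simulated data for ZH11-OE1 against ZH11 the test recovered 0% of genes altered by 0.5 on the log2 scale and 81.5% of those altered by 1, with 200 of the 21780 genes altered. This is far fewer than the 2999 genes called in the data, and the adjusted threshold was stricter for it.

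Between ZH11-OE1 and ZH11 the log2 difference was largest for the B-type cyclins *CYCB2-2* and *CYCB1-1*, neither of which was called, while *CYCB2-1* had a smaller value than the kinase *CDKB1-1*. *CYCB2-2*, which in rice binds *CDKB2-1* and speeds root growth when overexpressed, had 4.99, 5.72 and 6.59 FPKM in the 3 ZH11-OE1 libraries, 3.13, 5.39 and 4.47 FPKM in ZH11-KO1, and 2.40, 4.62 and 3.11 FPKM in ZH11. All ZH11-OE1 libraries lay above all ZH11 libraries, though the lowest of the one and the highest of the other were close, and ZH11-KO1 overlapped with both. The mean was 5.77 ± 0.804 FPKM in ZH11-OE1, 4.33 ± 1.14 FPKM in ZH11-KO1 and 3.38 ± 1.14 FPKM in ZH11 (SD, n = 3 each), 1.71 times as high in ZH11-OE1 as in ZH11. On the log2(FPKM + 1) scale the difference was 0.65 (SE 0.21, 95% interval 0.19 to 1.11, limma adjusted p = 0.0615), and the exact permutation test gave 0.1, the smallest p that 3 libraries against 3 allow. The call depended on the setting, as *CYCB2-2* passed in 6 of the 19 other settings in which it could be tested, with adjusted p between 0.0229 and 0.212. Without ZH11 replicate 2 the difference was 0.85 (adjusted p = 0.0246), and without ZH11-KO1 replicate 1 it was 0.65 (adjusted p = 0.0476). It was 0.49 without ZH11 replicate 1 (adjusted p = 0.212) and 0.57 without ZH11-OE1 replicate 3 (adjusted p = 0.163).

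*CYCB1-1*, in Arabidopsis the standard reporter of cells in G2 and mitosis and in rice needed for the cellularization of the endosperm, had 8.95, 8.49 and 11.1 FPKM in ZH11-OE1, 7.24, 12.6 and 8.87 FPKM in ZH11-KO1, and 5.31, 8.35 and 6.03 FPKM in ZH11. The value of ZH11-KO1 replicate 2 was the highest of the 9. The mean was 9.52 ± 1.41 FPKM in ZH11-OE1, 9.58 ± 2.76 FPKM in ZH11-KO1 and 6.56 ± 1.59 FPKM in ZH11 (SD, n = 3 each). ZH11-OE1 lay above ZH11 in all libraries, by a narrow margin, whereas ZH11-KO1 overlapped with ZH11. The log2 difference from ZH11 was 0.49 in ZH11-OE1 (SE 0.20, 95% interval 0.05 to 0.93, limma adjusted p = 0.128) and 0.47 in ZH11-KO1 (SE 0.20, 95% interval 0.03 to 0.92, limma adjusted p = 0.168). These comparisons share the ZH11 libraries. Without ZH11-KO1 replicate 2 the difference of ZH11-KO1 from ZH11 was 0.27 (adjusted p = 0.479). The replicate numbers of ZH11-KO1 and ZH11 met the rule set for pairing, and with the number as a block in a fit of these 2 genotypes alone the difference of *CYCB1-1* passed (0.47, SE 0.10, adjusted p = 0.0335). With the same block in the fit of all 9 libraries it did not (adjusted p = 0.126). The difference between ZH11-OE1 and ZH11-KO1 was 0.02 (95% interval -0.43 to 0.46), so neither line can be called the higher one.

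*CYCB2-1*, the other B2-type cyclin of the set, had 11.4, 11.4 and 12.7 FPKM in ZH11-OE1, 8.24, 11.1 and 10.8 FPKM in ZH11-KO1, and 9.72, 9.63 and 10.3 FPKM in ZH11. In the deposited values it is the only one of the 8 genes for which every ZH11-OE1 library lay above every library of ZH11-KO1 and of ZH11. Of all genes tested, 12.6% lay so above ZH11 and 18.8% above ZH11-KO1, and the share for both together was not counted. After rescaling of the libraries, 2 or 3 of the 8 genes had ZH11-OE1 wholly above ZH11-KO1. For *CYCB2-1* the separation was small in size, with a log2 difference of 0.24 from ZH11 (SE 0.12, 95% interval -0.02 to 0.50, limma adjusted p = 0.200) and of 0.22 from ZH11-KO1 (SE 0.12, 95% interval -0.04 to 0.48, limma adjusted p = 0.185). Without ZH11-KO1 replicate 1 the difference between ZH11-OE1 and ZH11-KO1 was 0.10. ZH11-KO1 and ZH11 differed by 0.01 (95% interval -0.25 to 0.27), and the sign of this value turned with the scaling of the libraries.

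*CDKB1-1*, a kinase that in Arabidopsis acts with A2-type cyclins, had 17.1, 16.9 and 21.0 FPKM in ZH11-OE1, 16.3, 17.0 and 15.6 FPKM in ZH11-KO1, and 13.6, 15.5 and 14.3 FPKM in ZH11. All libraries of both transgenic lines lay above all ZH11 libraries, by as little as 15.6 against 15.5 FPKM for the knockout, while the lines overlapped with each other. Its coefficient of variation among replicates, pooled over the genotypes, was 8.67%, against 10.04% to 25.9% for the other 7 genes, although *CYCB2-1* varied less within ZH11-OE1 (6.14% against 12.6%) and within ZH11 (3.86% against 6.80%). Sampling of reads alone would give 5.62% for *CDKB1-1*. The mean of 18.3 ± 2.31 FPKM in ZH11-OE1, against 14.4 ± 0.983 FPKM in ZH11 (SD, n = 3 each), gave a log2 difference of 0.32 (SE 0.10, 95% interval 0.09 to 0.55, limma adjusted p = 0.0648). The mean of ZH11-KO1, 16.3 ± 0.732 FPKM (SD, n = 3), gave 0.16 against ZH11 (95% interval -0.06 to 0.39, limma adjusted p = 0.351). Between ZH11-OE1 and ZH11 the gene passed under all 3 rescalings of the libraries that were tried, with adjusted p of 0.0302, 0.0310 and 0.0437, and under no other setting that was run. When all libraries were brought to the same sum of FPKM, *CDKB1-1* of ZH11-KO1 overlapped with ZH11.

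*CDKB2-1*, the other B-type kinase, had 11.7, 15.7 and 15.0 FPKM in ZH11-OE1, 11.3, 17.3 and 11.1 FPKM in ZH11-KO1, and 11.6, 14.4 and 12.3 FPKM in ZH11. The 3 genotypes overlapped widely, and the spread within ZH11-KO1 was larger than any difference between means. The log2 difference from ZH11 was 0.13 in ZH11-OE1 (95% interval -0.25 to 0.51) and 0.03 in ZH11-KO1 (95% interval -0.35 to 0.41), the sign of the value in ZH11-KO1 turning with the scaling. The ratio of *CDKB1-1* to *CDKB2-1* within a library was 1.08 to 1.46 in ZH11-OE1, 0.982 to 1.43 in ZH11-KO1 and 1.08 to 1.17 in ZH11, so these ranges overlapped.

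**Figure D2:**
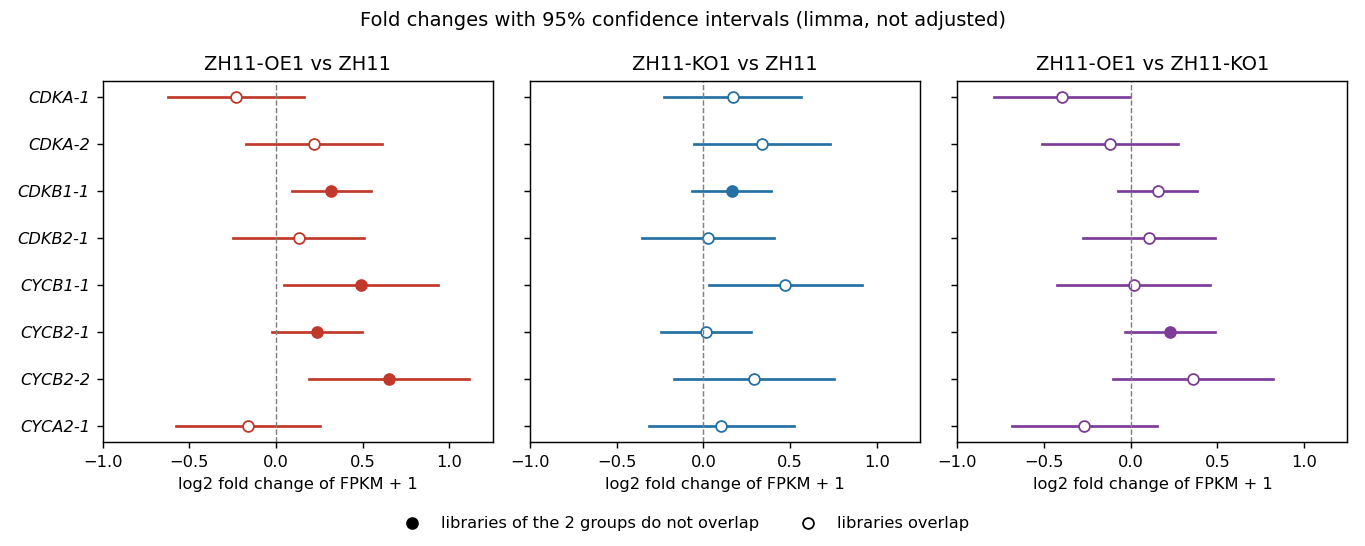
Difference in log2(FPKM + 1) (horizontal axes) of each gene between ZH11-OE1 and ZH11, ZH11-KO1 and ZH11, and ZH11-OE1 and ZH11-KO1, with 95% confidence intervals of the limma fit, not adjusted for the number of genes. Filled points mark genes whose libraries do not overlap between the groups, which were 4 genes between ZH11-OE1 and ZH11 and 1 gene in each of the other comparisons.

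The A-type kinases act at more than 1 stage of the cycle. The mean of *CDKA-1* was below the wild type in ZH11-OE1 and above it in ZH11-KO1, whereas that of *CDKA-2* was above it in both lines. *CDKA-1* had 7.98, 6.49 and 9.67 FPKM in ZH11-OE1, 9.20, 12.4 and 11.05 FPKM in ZH11-KO1, and 10.6, 11.04 and 7.27 FPKM in ZH11. ZH11-OE1 and ZH11-KO1 overlapped only in 1 library of each, with means of 8.05 ± 1.59 FPKM and 10.9 ± 1.59 FPKM (SD, n = 3 each), and ZH11 spanned much of the range of both. The log2 difference between ZH11-OE1 and ZH11-KO1 was -0.40 (SE 0.18, 95% interval -0.79 to -0.0049, limma adjusted p = 0.125), and the differences from ZH11 were -0.23 in ZH11-OE1 (adjusted p = 0.410) and 0.17 in ZH11-KO1 (adjusted p = 0.601).

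*CDKA-2*, the second A-type kinase, had 5.38, 4.58 and 6.04 FPKM in ZH11-OE1, 4.84, 6.29 and 6.56 FPKM in ZH11-KO1, and 3.24, 5.64 and 4.64 FPKM in ZH11. All genotypes overlapped, and the lowest value was that of ZH11 replicate 1. The log2 difference from ZH11 was 0.22 in ZH11-OE1 (95% interval -0.17 to 0.61) and 0.34 in ZH11-KO1 (95% interval -0.05 to 0.73). Without ZH11 replicate 1 these differences were 0.044 and 0.16. In ZH11 replicate 1 *CDKA-1* stood 3.28 times as high as *CDKA-2*, while in the other 8 libraries this ratio of levels lay between 1.42 and 1.97.

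*CYCA2-1*, the lowest of the set and the only A-type cyclin, had 2.46, 2.60 and 3.15 FPKM in ZH11-OE1, 2.99, 4.95 and 2.80 FPKM in ZH11-KO1, and 3.71, 2.51 and 3.40 FPKM in ZH11. The genotypes overlapped, and 1 library, ZH11-KO1 replicate 2, stood above all others. The log2 difference from ZH11 was -0.16 in ZH11-OE1 (95% interval -0.58 to 0.25) and 0.10 in ZH11-KO1 (95% interval -0.31 to 0.52). It rested on 59 to 118 reads per library, for which sampling of reads alone would give a coefficient of variation of 11.3%, against 23.5% among replicates.

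Counted over the set, the 4 genes whose ZH11-OE1 libraries all lay above ZH11 (*CDKB1-1*, *CYCB1-1*, *CYCB2-1* and *CYCB2-2*) stand beside 12.6% of all genes tested, and no member had all ZH11-OE1 libraries below ZH11, beside 21.2% of all genes. For ZH11-KO1 and ZH11 the count was 1 gene above (14.2% of all genes) and 0 below (16%), and for ZH11-OE1 and ZH11-KO1 it was 1 above (18.8%) and 0 below (25.1%). The median log2 difference of the 8 genes was 0.23 between ZH11-OE1 and ZH11, 0.17 between ZH11-KO1 and ZH11, and 0.06 between ZH11-OE1 and ZH11-KO1. The same median over all genes tested was -0.04, -0.02 and -0.03 in these comparisons. A value above 0 was found for 6, 8 and 5 of the 8 genes in that order of comparisons, beside 43.9%, 47.4% and 46.4% of all genes. The sign of 2 of the 8 values in ZH11-KO1 against ZH11, those of *CDKB2-1* and *CYCB2-1*, turned with the scaling, and these with *CDKA-1* and *CYCA2-1* turned when single libraries were left out.

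Ratios within a library do not change when the library is multiplied by a single factor, though quantile normalization can change them. Formed from the deposited FPKM, the ratio of the B-type cyclins to the A-type kinases was highest in the 3 ZH11-OE1 libraries. The summed FPKM of the 3 B-type cyclins, divided by that of the 2 A-type kinases, was 1.90 to 2.32 in the ZH11-OE1 libraries, 1.32 to 1.56 in ZH11-KO1 and 1.26 to 1.64 in ZH11. All ZH11-OE1 libraries thus lay above all others, with a mean of 2.05 ± 0.233, whereas ZH11-KO1 (1.42 ± 0.126) and ZH11 (1.42 ± 0.197) overlapped (SD, n = 3 each). The B-type cyclin sum alone was 25.3 to 30.4 FPKM in ZH11-OE1, 18.6 to 29.2 in ZH11-KO1 and 17.4 to 22.6 in ZH11. It thus overlapped between ZH11-OE1 and ZH11-KO1. The A-type kinase sum was 11.1 to 15.7, 14.0 to 18.7 and 11.9 to 16.7 FPKM in that order, and all genotypes overlapped. Ratios of other genes were not formed for comparison. The ratio of the B-type to the A-type kinases was 2.16 to 2.94 in ZH11-OE1, 1.51 to 1.97 in ZH11-KO1 and 1.79 to 2.23 in ZH11, so that ZH11-OE1 overlapped with ZH11 but not with ZH11-KO1. The ratio of the B-type cyclins to the B-type kinases was 0.789 to 0.880 in ZH11-OE1, 0.674 to 0.908 in ZH11-KO1 and 0.692 to 0.755 in ZH11. Here ZH11-OE1 lay above ZH11, and the spread of ZH11-KO1 covered both. These ratios were formed with the single values known and are given without a test.

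**Figure D3:**
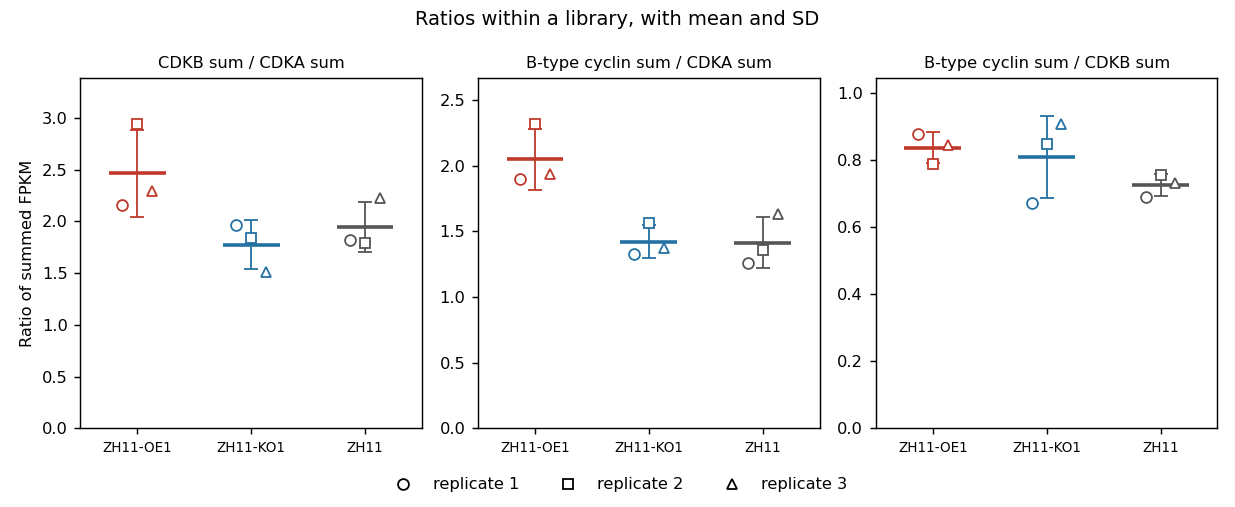
Ratio of summed FPKM within a library (vertical axes, from 0) for the B-type over the A-type kinases, the B-type cyclins over the A-type kinases and the B-type cyclins over the B-type kinases in ZH11-OE1, ZH11-KO1 and ZH11, with 1 point per library, the mean and 1 SD (n = 3). The ratio of B-type cyclins to A-type kinases is 1.90 or more in ZH11-OE1 and at most 1.64 in the other 6 libraries.

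Within each genotype a single library was the highest for most of the set. How much of the variation lay within genotypes was not computed. In ZH11-KO1, replicate 2 was the highest of the 3 libraries for 7 of the 8 genes, all but *CDKA-2*. Of all genes tested, 31.8% were highest in that replicate 2. Replicate 1 of ZH11-KO1 was the lowest for 5 of the 8 genes, beside 32.4% of all genes. It was below the mean of its genotype for all 8, and the share of all genes below that mean was not counted. In ZH11-OE1, replicate 3 was the highest for 7 of the 8 genes, all but *CDKB2-1*, beside 42.6% of all genes. In ZH11, replicate 2 was the highest for 6 of the 8 genes, beside 36.6% of all genes, while *CYCB2-1* and *CYCA2-1* were lowest there. The median deviation of the 8 genes from the mean of their own genotype was 0.17 in ZH11-OE1 replicate 3, 0.23 in ZH11-KO1 replicate 2 and 0.18 in ZH11 replicate 2, in units of log2(FPKM + 1). In ZH11-KO1 replicate 1 it was -0.22. The median differences of ZH11-OE1 and ZH11-KO1 from ZH11, 0.23 and 0.17, were thus of the size of these deviations of single libraries. The median difference between ZH11-OE1 and ZH11-KO1, 0.06, was smaller.

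**Figure D4:**
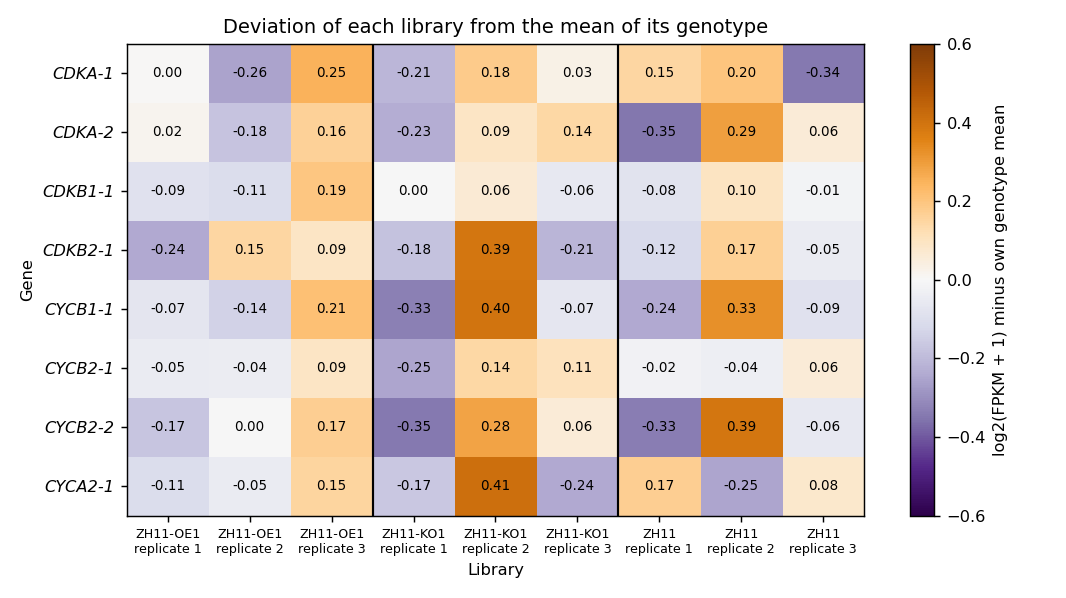
Deviation of log2(FPKM + 1) of each gene (rows) in each library (columns) from the mean of its own genotype, with the value in each cell and the colour from -0.6 (purple) to 0.6 (orange). The columns of ZH11-OE1 replicate 3 and ZH11-KO1 replicate 2 are above 0 for all 8 genes, and in that of ZH11 replicate 2 only *CYCB2-1* and *CYCA2-1* are below 0.

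Markers of the anther were compared in the same libraries, since a panicle before heading also holds anthers. The summed level of 7 tapetum genes was 535, 554 and 528 FPKM in ZH11-OE1, 466, 561 and 439 FPKM in ZH11-KO1, and 276, 380 and 188 FPKM in ZH11. Of these 7 genes, 4 rose in ZH11-OE1 and 5 in ZH11-KO1 against ZH11 and none fell, with a median log2 difference of 0.50 and 0.83. Of all genes tested, 3.76% rose and 10% fell in ZH11-OE1, and 5% rose and 3.59% fell in ZH11-KO1. Within ZH11-KO1 and within ZH11, replicate 2 had the highest sum of the tapetum list too. Within ZH11-OE1, however, replicate 3 had the lowest sum of this list. The summed level of 8 meiosis genes was 36.9, 45.3 and 49.0 FPKM in ZH11-OE1, 27.3, 32.4 and 33.3 FPKM in ZH11-KO1, and 27.1, 33.6 and 32.2 FPKM in ZH11. None of the 6 that could be tested was called against ZH11, beside 13.8% of all genes in ZH11-OE1 and 8.6% in ZH11-KO1. Of the 6, 2 were higher in ZH11-OE1 than in ZH11-KO1 (median log2 difference 0.46), beside 8.09% of all genes. Of 4 genes of green tissue, 3 fell in ZH11-OE1 against ZH11 (10% of all genes). All 4 were lower in ZH11-OE1 than in ZH11-KO1 (15.8% of all genes), and none was called in ZH11-KO1 against ZH11. Their summed levels were 3069 to 3926 FPKM in ZH11-OE1, 5594 to 6263 FPKM in ZH11-KO1 and 5424 to 7593 FPKM in ZH11. No defining marker of these lists was at 0 in all libraries. The part of these cell types in the values of the cyclins and kinases was not tested.

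Likeness of 2 genes was measured as the root mean square difference of their profiles over the 9 libraries, each profile scaled to mean 0 and SD 1. *CYCB1-1* and *CYCB2-2* were the most alike of the 8 genes, with a difference of 0.475. Among the 21779 other genes, *CYCB2-2* ranked 101 in likeness to *CYCB1-1*, and *CYCB1-1* ranked 196 in likeness to *CYCB2-2*. When only deviations from the mean of the genotype were used, the difference between them was 0.373 and the ranks were 49 and 86. Against *CYCB1-1* the median difference of all genes was 1.42, and 1.35 within genotypes. Likeness did not follow the classes throughout. *CDKB1-1* differed by 0.557 from *CYCB2-2*, and *CDKA-2* by 0.572 from *CYCB1-1*, whereas *CYCB2-1* differed by 0.898 from *CYCB1-1*. *CYCA2-1* differed from each of the other 7 genes by 1.03 to 1.53, and *CDKA-1* by 1.03 to 1.52. The median difference of all genes was 1.36 against *CYCA2-1* and 1.34 against *CDKA-1*. All points of these profiles come from the same 9 libraries and share their depth.

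Of the wider cell-cycle machinery, 38 other genes were taken as whole lists by identifier, of which 32 could be tested. These were other cyclins, other kinases of the family, CDK inhibitors, regulators that modify or bind CDKs, activators of the anaphase-promoting complex, and E2F factors with their retinoblastoma-related partners. Against ZH11, 1 of the 32 rose and none fell in ZH11-OE1 (median log2 difference 0.11), and 1 rose and none fell in ZH11-KO1 (median 0.08). Of all genes tested, 3.76% rose in ZH11-OE1 and 5% in ZH11-KO1, so a single call among 32 genes is close to the share over all genes. The gene that rose in ZH11-OE1 belonged to the list of E2F and retinoblastoma-related genes, whose summed level was 56.6 to 67.4 FPKM in ZH11-OE1, 44.9 to 52.7 FPKM in ZH11-KO1 and 47.7 to 57.3 FPKM in ZH11. E2F factors can switch on genes of DNA replication, and the retinoblastoma-related protein restrains them. The sum mixes both kinds, and which kind the gene that rose belongs to is not given here. The gene that rose in ZH11-KO1 belonged to the CDK inhibitors, which block the kinases, and the summed level of this list was 41.3 to 41.6 FPKM in ZH11-OE1, 46.3 to 59.5 FPKM in ZH11-KO1 and 37.1 to 45.2 FPKM in ZH11.

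Between ZH11-OE1 and ZH11-KO1, 5 of the 32 genes were higher and 5 lower in ZH11-OE1 (median 0.08), where 8.09% of all genes were higher and 15.8% lower, so the lower calls are close to the share over all genes. The higher ones were 3 of the 7 other kinases and 2 of the 4 E2F and retinoblastoma-related genes. The lower ones were 2 of the 11 other cyclins tested, 2 of the 4 CDK inhibitors tested and 1 of the 2 CDK regulators. None of the 4 activators of the anaphase-promoting complex, through which B-type cyclins are destroyed, was called in any comparison, at summed levels of 40.5 to 49.4 FPKM in ZH11-OE1, 37.1 to 41.6 FPKM in ZH11-KO1 and 40.1 to 44.5 FPKM in ZH11.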

How the data were processed

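RNA of young panicles was sequenced on an Illumina instrument by the authors, who filtered the reads, mapped them to IRGSP-1.0 with HISAT2, counted reads per gene with featureCounts and tested them with DESeq2. The deposited values are FPKM, which the authors computed for 37863 genes. No library had a read for 5655 of them. Neither the step from counts to FPKM nor the use of strand in counting is given in the sources used here, and values of genes with near copies or overlapping antisense genes are therefore uncertain. Genotypes and replicate numbers came from the labels.

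FPKM are not counts, so log2(FPKM + 1) was tested in R 4.3.3 with limma 3.58.1 (3 genotype means fitted to the 9 libraries, a trend on mean expression, two-sided), for genes that averaged 1 FPKM or more and with Benjamini-Hochberg adjustment over the 21780 genes. Exact permutation tests of single genes were two-sided. Whole reads were recovered from the FPKM steps for 99.96% of these genes (tolerance 0.001), and the deepest library held 1.15 times the reads of the shallowest. Tables and plots were made with Python 3.11.15, numpy 2.4.6, pandas 2.3.3 and matplotlib 3.10.9. The limma test was also run on simulated data with known changes.

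The 8 genes, the lists and the tests were chosen with earlier results of these data known. All 8 genes were named whatever their values. Members of the other lists, whose identifiers come from background knowledge, are not named, and the lists planned on words in gene descriptions were not used, since 1 identifier of the table joined to the 39387 rows of the RefSeq table (ASM3414082v1). No sequence is shown.

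Pairing by replicate number was checked by the correlation across genes of deviations from the group means. Same-numbered libraries of ZH11-KO1 and ZH11 had r of 0.278, 0.234 and 0.316, above the limit of 0.1, so their numbers may be pairs, from the data alone. The main fit used no pairing, and the replicate block was run only as an alternative. No source names a shared batch or day, and ZH11-OE1 replicate 3 and ZH11 replicate 2, of different number, had 0.274. Same-numbered libraries had r of 0.0234, -0.0553 and -0.279 for ZH11-OE1 and ZH11, and of 0.00125, -0.0649 and 0.0147 for ZH11-OE1 and ZH11-KO1, so the limit was not met there.

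Alternatives tried were 3 rescalings of the libraries (median-of-ratios, quantile and a common sum of FPKM), another filter (none, or a mean of 5 FPKM), a pseudocount of 0.1, no trend, a fit of 2 genotypes, replicate blocks, and each library left out. A voom fit of the recovered reads was added after seeing the data.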

Additional observations from a re-analysis of the deposited data

How the results depend on the processing

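Of 474 log2 differences of the 8 genes recomputed under 20 other settings, 449 kept their direction and their side of the threshold, 10 passed it and 15 turned in sign. The cause was not tested. Between ZH11-OE1 and ZH11 the number of the 8 genes called was 2 under median-of-ratios rescaling (*CDKB1-1* 0.37, *CYCB2-2* 0.70) and under quantile normalization (0.37 and 0.74), 1 with libraries set to a common sum (*CDKB1-1*), 1 with a replicate block over all 9 libraries (*CYCB2-2* 0.65) and 1 with voom (*CYCB2-2* 0.82), and 0 to 1 when single libraries were left out. Between ZH11-KO1 and ZH11 it was 1 with the replicate block in a fit of the 2 genotypes, and 0 to 0 without single libraries. Between ZH11-OE1 and ZH11-KO1 it was 0 throughout. Near 0 in ZH11-KO1 against ZH11, *CDKB2-1* became -0.026 at a common sum, and *CYCB2-1* became -0.0035 under quantile normalization and -0.039 at a common sum. With single libraries left out, the differences in ZH11-KO1 against ZH11 ran from -0.0041 to 0.27 for *CDKA-1*, from -0.17 to 0.13 for *CDKB2-1*, from -0.059 to 0.14 for *CYCB2-1* and from -0.10 to 0.22 for *CYCA2-1*, and those of ZH11-OE1 against ZH11-KO1 from -0.0022 to 0.30 for *CDKB2-1* and from -0.15 to 0.21 for *CYCB1-1*. No gene had ZH11-KO1 wholly above ZH11 at a common sum, and 2, 3 and 2 genes had ZH11-OE1 wholly above ZH11-KO1 under median-of-ratios, quantile and sum scaling.

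Over all genes, 2999 were called between ZH11-OE1 and ZH11 (820 higher and 2179 lower), 1245 with the block in a fit of the 2 genotypes, and 1090 (without ZH11-OE1 replicate 2) to 3235 (without ZH11 replicate 3) with single libraries left out. The split was 1222 higher and 1767 lower under median-of-ratios and 1171 and 1725 under quantile scaling. Between ZH11-KO1 and ZH11, 1872 were called (1090 higher and 782 lower), 1202 without a filter, 960 in a fit of the 2 genotypes, 2705 in that fit with the block, and 417 (without ZH11-KO1 replicate 2) to 1993 (without ZH11 replicate 2) with single libraries left out, and a common sum gave 944 higher and 1133 lower. Between ZH11-OE1 and ZH11-KO1, 5198 were called (1761 higher and 3437 lower), 2336 (without ZH11-OE1 replicate 2) to 5638 (without ZH11 replicate 1) with single libraries left out, and the splits were 2490 and 3158, 2924 and 2801, and 3218 and 2701 under median-of-ratios, quantile and sum scaling. *CYCB2-2* and *CYCA2-1* were below the minimum mean of 5 FPKM. The replicate block changed no other call of the 8 genes.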
